A study of Mus musculus with 10 samples.

Results

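The genes described here are 45 genes of the cell division cycle, 26 that act in mitosis and 19 that act in DNA replication and entry into S phase. They are a list of gene symbols grouped by function, matched to the symbols of 23284 features in the deposited tables, and all 45 were found. RNA came from the colorectum (also called rectum in the labels) of BALB/c mice aged 7 weeks, and 10 libraries were made, with 2 for every one of 5 groups. The normal group was untreated and was examined on day 0. The other 4 groups received 2% dextran sodium sulfate (DSS), a sulfated polysaccharide that damages the colonic epithelium, together with a miRNA loaded in super carbonate apatite (sCA), a carrier of nucleic acids, injected into the tail vein. The control miRNA, NC-miR, was followed by tissue collection on day 2 (NC-miR_2d) or day 4 (NC-miR_4d), and miR-29a (29a_4d) and miR-29b (29b_4d) by collection on day 4. Injections were on days 1, 2 and 3 per the labels, which say so for NC-miR_2d as well. Normal mice received neither DSS nor an injection, so a difference from normal cannot tell apart DSS, the carrier, the miRNA and the day of collection. The labels do not say whether the 2 libraries of a group came from separate animals, and the p-values measure only the spread between these libraries, which may be technical.

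Cells copy their DNA in S phase and divide it in mitosis, and the genes of the 2 steps are transcribed in successive waves. Licensing factors load the MCM helicase onto replication origins in G1, cyclin E with its kinase starts S phase, and polymerases, their clamp and ribonucleotide reductase then extend DNA. Cyclin B with Cdk1 drives entry into mitosis, kinetochore proteins attach chromosomes to the spindle, and motor proteins and the passenger complex complete division. In the colorectum most dividing cells are transit amplifying cells of the crypt, with a further contribution from lymphoid cells. In bulk tissue, fewer dividing cells and less RNA of these genes per cell cannot be told apart.

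Each deposited value is a log2 ratio of a gene in 1 library to a baseline of that gene, which the sources used here do not define, so a value of 1 is a doubling over that baseline. The values carry no expression level, and levels of different genes cannot be compared. Low values had been raised to a common floor. A feature was tested if some group had both of its libraries above the floor, which held for 13051 features and for all 45 genes. Of these, 43 lay above the floor in all 10 libraries, and Ska1 and Pole lay at the floor in 4 libraries each. No read counts are given and the depth is unknown. Per library, 12680 to 12940 features lay above the floor. All 14 columnar epithelium markers, which define the lining of this tissue, were among the features tested.

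None of the 45 genes differed between any 2 groups in limma at an adjusted p under 0.05, in 8 comparisons, or in the moderated F over the 5 groups. That F called 49 of 13051 features (0.375%). At an unadjusted F p under 0.05 there were 7 of the 45 members, a share near the 14.4% over all features. These 7 were mitosis genes: Top2a, Bub1, Kif11, Kif20a, Cenpe, Ska1 and Ska3. Missing the threshold does not show that a gene was equal between groups, because these genes varied more between the 2 libraries of a group than most genes did. The residual SD about the group means had a median of 0.49 over the mitosis genes (0.19 to 0.70) and 0.42 over the replication genes (0.21 to 0.60), against 0.18 over all features tested. The differences of single genes below are therefore given as values with their errors. Medians over a set carry no error of their own and are to be read against the spread of libraries. The SD of the per-library set median about its group means was 0.45 for mitosis and 0.42 for replication.

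The mitosis genes differed both between groups and between the libraries of a group. Their median was 0.35 and -0.16 in the normal libraries (replicates 1 and 2), -0.17 and 0.27 with NC-miR on day 2, 0.04 and 0.55 with NC-miR on day 4, -0.62 and 0.01 with miR-29a and -1.27 and -0.30 with miR-29b. The first miR-29b library was the lowest of the 10 for 24 of 26 mitosis genes, and the second NC-miR day 4 library was the highest for 19. All 26 were below their baseline in the first library of both miR-29 groups.

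The replication genes followed another order. Their median was 0.15 and 0.07 in normal, -0.51 and -0.15 with NC-miR on day 2, -0.66 and 0.33 with NC-miR on day 4, 0.03 and -0.28 with miR-29a and -0.56 and 0.16 with miR-29b. All 19 were below their baseline in the first library of both NC-miR groups, and all 19 were above it in the second NC-miR day 4 library. The lowest library was miR-29b replicate 1 for 8 of them, NC-miR day 2 replicate 1 for 7 and NC-miR day 4 replicate 1 for 4.

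**Figure D1:**
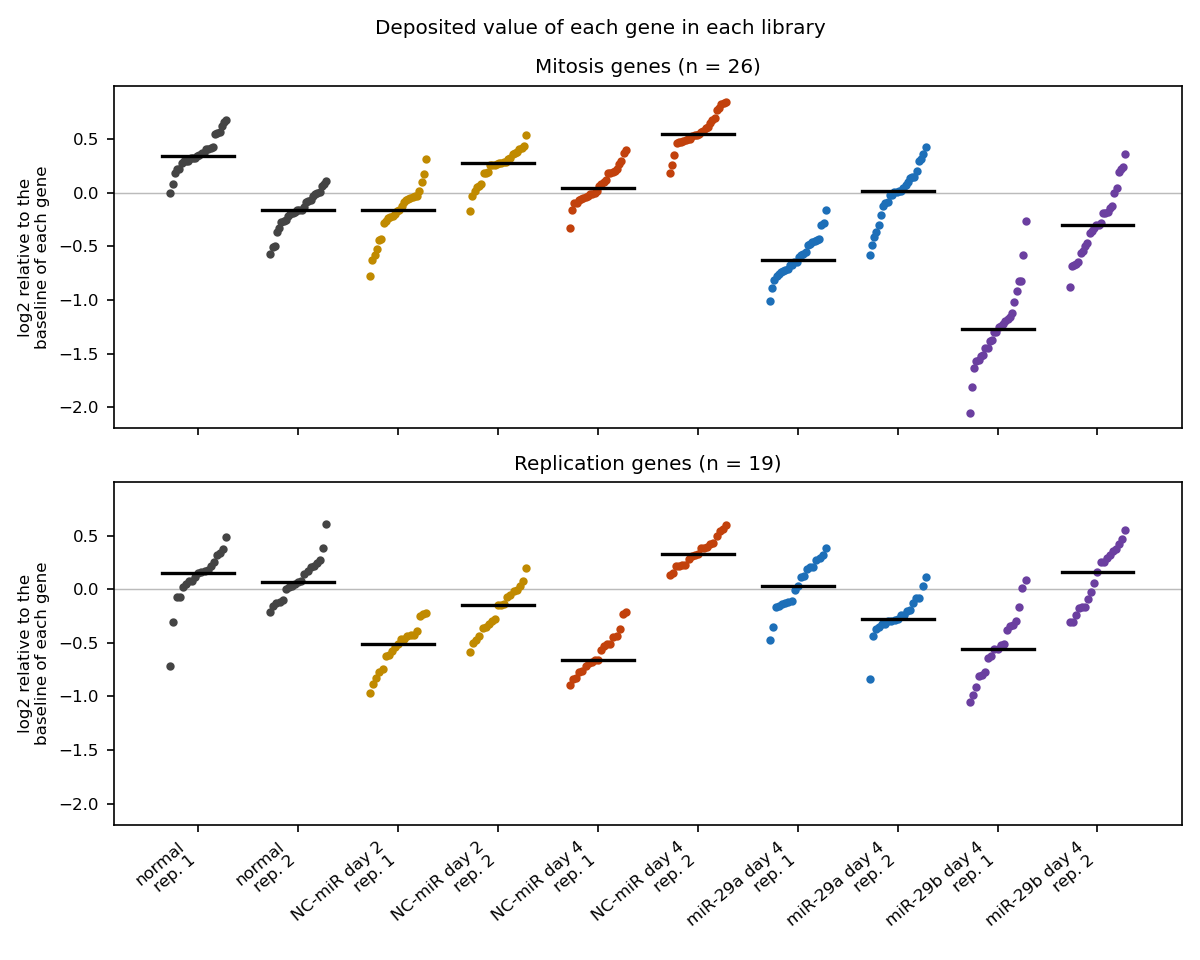
Each point is 1 gene in 1 library, on the deposited log2 scale relative to the baseline of each gene (vertical axis), for 26 mitosis genes (upper panel) and 19 replication genes (lower panel). The horizontal bars are medians, with replicates 1 and 2 of each group side by side. The mitosis genes are lowest in miR-29b replicate 1 (median -1.27), and the replication genes are lowest in NC-miR day 4 replicate 1 (median -0.66).

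Within single libraries the 2 sets could lie far apart. In NC-miR day 4 replicate 1, 17 of 19 replication genes lay below every mitosis gene, and the replication median was 0.70 below the mitosis median. In miR-29a replicate 1 the order was the opposite, with 16 of 19 replication genes above every mitosis gene. The replication median minus the mitosis median was negative in both libraries of NC-miR on day 2 (-0.34 and -0.43) and on day 4 (-0.70 and -0.22). It was positive in both miR-29b libraries (0.72 and 0.46) and differed in sign between the normal libraries (-0.20 and 0.23) and between the miR-29a libraries (0.65 and -0.29). These are positions relative to each gene's own baseline, not levels.

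The 2 libraries of a group differed on most members at once. In the miR-29b pair, replicate 2 was higher for 45 of 45 genes, with a median difference of 0.96 for mitosis and 0.70 for replication. In the NC-miR day 4 pair it was higher for 25 of 26 mitosis genes (median 0.59) and 19 of 19 replication genes (0.99, range 0.50 to 1.36). In the NC-miR day 2 pair it was higher for 24 of 26 mitosis genes (median 0.42) and 18 of 19 replication genes (0.33). The sets parted in the normal and miR-29a pairs. The normal pair differed on all 26 mitosis genes with replicate 1 higher (median -0.53), and little on replication (-0.12). The miR-29a pair had mitosis genes higher in replicate 2 (24 of 26, median 0.71) and replication genes mostly higher in replicate 1 (16 of 19, median -0.17). Over all features tested the median gap in each group lay between -0.02 and 0.03. Genes of a set are thus not independent of each other, and every count of separated genes below rests on the same few libraries.

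**Figure D2:**
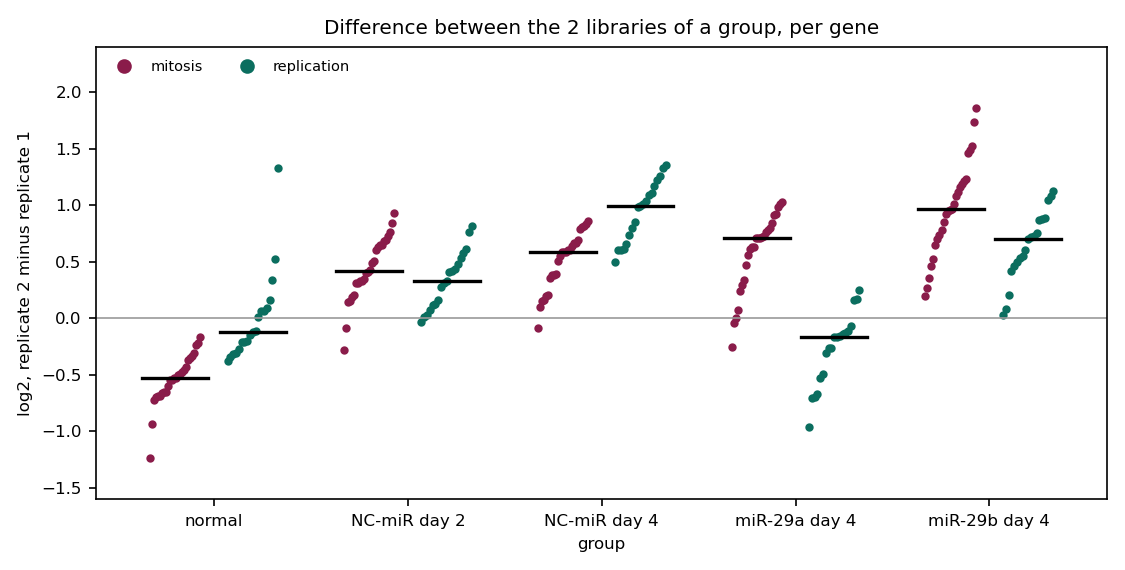
Each point is 1 gene, and the vertical axis is the log2 value in replicate 2 minus that in replicate 1 of the same group. Bars are medians over 26 mitosis genes and 19 replication genes. The miR-29a pair shows mitosis genes mostly above 0 (median 0.71) and replication genes mostly below it (median -0.17).

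Markers of other cells also differed between these libraries. Of 12 squamous epithelium markers, 4 were above the floor often enough to be tested. They had a median of 3.63 in NC-miR day 4 replicate 1, where the replication genes were lowest, against -0.87 to 0.34 in the other 9 libraries. Smooth muscle markers (9 of 10 tested) were low in NC-miR day 4 replicate 2 (median -0.46, against -0.03 to 0.21 elsewhere), the library where the most members were highest. Neutrophil markers (3 of 6 tested) were high in NC-miR day 2 replicate 1 (2.65, against -1.18 to 0.98 elsewhere). B cell markers (11 of 12 tested) were high in both normal libraries (1.32 and 1.35, against -0.69 to 0.69 in the others). Crypt stem and transit amplifying markers (12 of 13 tested) ran from -0.31 to 0.34 and were lowest in NC-miR day 2 replicate 1. Columnar epithelium markers (14 of 14 tested) were highest in both miR-29b libraries (medians 0.36 and 0.43, against -0.19 to 0.12 in the other 8), the group where the mitosis genes were lowest. The part of these differences in the values of the cell cycle genes was not tested.

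The promoters of the 2 sets are shown because they differ in sequence. RefSeq promoter windows on GRCm38.p6, from 250 bases before to 50 bases after the start site, were found for 35 of the 45 genes (20 mitosis and 15 replication). Both strands were searched, and overlapping matches were counted. The cell cycle homology region, or CHR, is TTTGAA here, and its binding complexes include the DREAM and MuvB proteins. It was present in 15 of 20 mitosis promoters (75.0%) and 2 of 15 replication promoters (13.3%), against 18.1% of 27018 promoters in the table. The E2F motif was taken as TTTGGCGC, TTTCCCGC, TTTGCCGC or TTTCGCGC. It was present in 1 of 20 mitosis promoters (5%, that of Cdk1) and 7 of 15 replication promoters (46.7%), against 2.32% of all. CCAAT, the box bound by NF-Y, occurred in 16 of 20 mitosis promoters (80.0%) and 11 of 15 replication promoters (73.3%), against 37.9% of all. A match is a description of letters in this window and shows no binding.

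**Figure D3:**
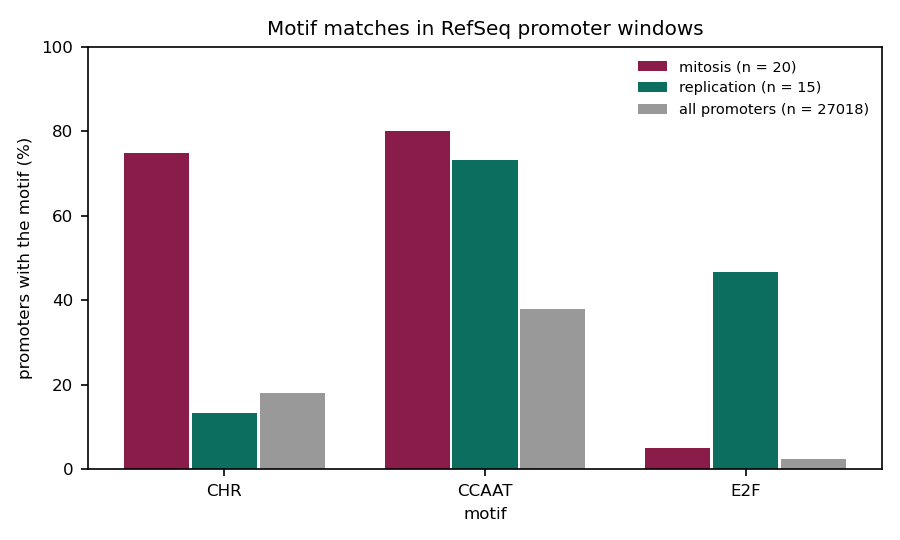
Bars give the percentage of promoter windows holding each motif, for 20 mitosis genes, 15 replication genes and all 27018 windows of the RefSeq table. CHR is at 75.0% in mitosis and 13.3% in replication promoters, and E2F is at 5% and 46.7%.

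Top2a is shown because its promoter held the most CHR and CCAAT matches of the members. Among the mitosis genes named with values, Mki67 tied next with Cdk1, at 2 CHR and 3 CCAAT matches each. Mki67 was taken for its smaller limma F p (0.063 against 0.279). Capitals mark CHR and CCAAT on either strand, and the windows of Top2a and Mki67 are on the minus strand of GRCm38.p6. The window of Top2a lies at chr11:99024140-99024439 and holds 2 CHR and 6 CCAAT matches. The window of Mki67 lies at chr7:135716330-135716629 and holds 2 CHR and 3 CCAAT matches.
Top2a: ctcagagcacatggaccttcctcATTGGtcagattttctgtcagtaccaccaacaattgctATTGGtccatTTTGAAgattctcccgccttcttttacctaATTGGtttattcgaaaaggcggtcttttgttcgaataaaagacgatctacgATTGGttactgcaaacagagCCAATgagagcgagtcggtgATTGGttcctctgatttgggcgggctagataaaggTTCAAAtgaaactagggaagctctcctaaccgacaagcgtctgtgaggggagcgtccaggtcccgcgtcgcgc
Mki67: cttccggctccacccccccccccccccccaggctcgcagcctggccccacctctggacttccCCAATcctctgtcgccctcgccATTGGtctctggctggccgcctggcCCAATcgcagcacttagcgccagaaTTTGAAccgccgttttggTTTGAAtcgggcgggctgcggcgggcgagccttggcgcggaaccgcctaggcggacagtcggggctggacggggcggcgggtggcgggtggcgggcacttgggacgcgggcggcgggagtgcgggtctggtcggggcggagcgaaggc

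Mcm6, whose promoter held the most E2F matches of the members, and Mcm7 are shown for the replication genes, also on the minus strand. Capitals here mark E2F matches on either strand. The window of Mcm6 lies at chr1:128359656-128359955 and holds 3 matches, of which a pair overlaps. The window of Mcm7 lies at chr5:138171834-138172133 and holds 2.
Mcm6: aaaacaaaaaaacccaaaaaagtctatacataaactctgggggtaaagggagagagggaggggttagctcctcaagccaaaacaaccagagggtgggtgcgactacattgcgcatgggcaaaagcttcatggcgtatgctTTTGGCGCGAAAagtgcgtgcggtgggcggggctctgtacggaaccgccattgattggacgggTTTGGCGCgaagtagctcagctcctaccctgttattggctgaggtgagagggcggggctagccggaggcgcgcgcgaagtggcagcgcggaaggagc
Mcm7: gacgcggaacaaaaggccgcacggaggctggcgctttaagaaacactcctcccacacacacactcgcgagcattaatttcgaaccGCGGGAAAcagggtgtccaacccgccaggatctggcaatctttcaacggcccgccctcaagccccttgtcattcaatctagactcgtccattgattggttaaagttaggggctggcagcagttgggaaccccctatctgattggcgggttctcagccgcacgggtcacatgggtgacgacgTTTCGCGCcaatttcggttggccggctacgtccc

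How did the genes differ from normal on day 2 after DSS and NC-miR? For 15 of 19 replication genes both NC-miR day 2 libraries lay below both normal libraries, against 29.6% of all features. Their median difference was -0.45, against -0.06 over all features. The SD of the per-library replication median about its group means, 0.42, was of similar size. For mitosis genes the median difference was -0.09, with 3 of 26 separated downwards and 0 upwards (18.6% of all features). limma called 0 members, against 159 of 13051 features (1.22%), and 1 member (Ska1) had an unadjusted p under 0.05, against 15.2% of features. With the first NC-miR library left out the replication median was -0.31, and 15 of 19 genes lay below both normal libraries in the other (39.9% of all features). The sign of the mitosis median was not stable. With the first and second NC-miR libraries left out in turn it was 0.18 and -0.32, and with the first and second normal libraries left out, 0.13 and -0.33. In the same comparison crypt stem and transit amplifying markers had a median of -0.41, with 9 of 12 negative and 6 separated downwards. B cell markers had a median of -1.41, with 11 of 11 separated downwards, and columnar epithelium markers 0.04. limma called 0 of these markers. Their part in the values of the members was not tested.

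Among the licensing factors, Cdt1 brings the helicase to origins and stood at 0.11 and -0.10 in normal and at -0.51 and -0.50 with NC-miR on day 2. Both day 2 libraries were low and close together, and the difference was -0.51 ± 0.24 (SE, n = 2 per group, limma adjusted p = 0.357). Cdc6, which loads the helicase together with Cdt1, stood at 0.37 and 0.07 in normal and at -0.88 and -0.30 on day 2. Its difference was -0.82 ± 0.43 (limma adjusted p = 0.419). Gmnn encodes geminin, the inhibitor of Cdt1, and stood at 0.32 and 0.00 against -0.46 and -0.02. The groups were narrowly separated, with a difference of -0.40 ± 0.29.

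Of the helicase subunits Mcm2 to Mcm7, all 6 were below their baseline in both day 2 libraries (medians -0.62 and -0.40), against medians of 0.06 and 0.16 in normal. Mcm2 stood at 0.05 and 0.38 in normal and at -0.83 and -0.35 on day 2, a difference of -0.81 ± 0.37 (limma adjusted p = 0.353). Mcm6 stood at 0.02 and 0.08 against -0.74 and -0.44 (-0.64 ± 0.43). Mcm7 stood at 0.22 and 0.27 against -0.43 and -0.36 (-0.64 ± 0.32). For these 3 subunits the groups did not overlap.

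Ribonucleotide reductase makes deoxyribonucleotides from a large subunit, Rrm1, and a small one, Rrm2. Rrm2 stood at 0.49 and 0.22 in normal and at -0.97 and -0.15 on day 2, so the day 2 libraries differed from each other by 0.82. The group difference was -0.92 ± 0.45 (95% interval -1.95 to 0.12, limma adjusted p = 0.386). Rrm1 stood at 0.15 and 0.03 against -0.39 and 0.03, with a difference of -0.27 ± 0.24, and the second library of each group had nearly the same value.

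Pcna, the clamp that holds polymerases on DNA, stood at 0.17 and 0.05 in normal and at -0.25 and -0.14 on day 2 (-0.31 ± 0.26). Prim1, the small primase subunit, stood at 0.34 and 0.14 against -0.58 and -0.05 (-0.56 ± 0.33). Pole, the catalytic subunit of polymerase epsilon, stood at 0.16 and 0.17 in normal, and at the floor (-0.43) and -0.15 on day 2. These 3 genes were separated between the groups. For Pole the difference was -0.45 ± 0.20 (limma adjusted p = 0.329), which is a bound in part because 1 library lay at the floor. Pola1, the catalytic subunit of polymerase alpha, overlapped, at -0.07 and -0.21 in normal and -0.22 and 0.20 on day 2. The E cyclins that start S phase overlapped as well. Ccne1 stood at -0.31 and 0.21 in normal and -0.54 and 0.08 on day 2. Ccne2 stood at -0.72 and 0.61 in normal and -0.77 and -0.01 on day 2.

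Of the mitosis genes, Mki67, which encodes the proliferation antigen Ki-67, stood at 0.08 and -0.16 in normal and at -0.04 and 0.29 with NC-miR on day 2. Its difference was 0.17 ± 0.37 (95% interval -0.69 to 1.03). Ska1, a component of the complex that couples kinetochores to microtubules, stood at 0.66 and 0.06 in normal and at the floor (-0.63) and 0.05 on day 2. The difference was -0.65 ± 0.26 (limma adjusted p = 0.288), and the groups were narrowly separated.

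By day 4 with NC-miR, replication genes lay far apart between the 2 libraries, and mitosis genes were near or above normal. The median difference from normal was -0.20 for replication (17 of 19 negative) and 0.20 for mitosis (24 of 26 positive), against -0.03 over all features. Separation was rare. Only 1 replication gene, Pole, lay below both normal libraries (26.9% of all features did), and 3 mitosis genes lay above them (20.4% of all features). limma called 0 members against 50 features (0.383%), and 0 members had an unadjusted p under 0.05 (15.2% of features). Leaving out the first NC-miR day 4 library gave a replication median of 0.22 and a mitosis median of 0.49, and leaving out the second gave -0.64 and -0.09. Leaving out the first and second normal libraries in turn gave mitosis medians of 0.43 and -0.04.

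Plk1, the kinase that acts at centrosomes and kinetochores through mitosis, was higher in both NC-miR day 4 libraries (0.27 and 0.18) than in both normal libraries (0.00 and -0.22). Its difference was 0.34 ± 0.19 (limma adjusted p = 0.427). Ccnb1, cyclin B1, stood at 0.37 and 0.57 against 0.32 and -0.37, and its groups were narrowly separated (0.49 ± 0.43). On Mcm2 the NC-miR day 4 libraries stood at -0.68 and 0.31. On Cdc6 they stood at -0.76 and 0.28, on Rrm2 at -0.83 and 0.54, and on Ccne1 at -0.84 and 0.33. In each of these 4 genes replicate 1 was the low library.

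Between day 2 and day 4 of NC-miR, the median difference was 0.30 for mitosis and 0.29 for replication, against 0.02 over all features. Of the mitosis genes 7 were higher in both day 4 libraries, and of the replication genes 1, Cdt1 (19.6% of all features). Foxm1, the transcription factor that activates many genes of late cell cycle phases, stood at -0.78 and 0.06 on day 2 and at 0.12 and 0.48 on day 4. Its difference was 0.66 ± 0.34 (95% interval -0.13 to 1.44). limma called 0 members against 2 features (0.0153%), with 0 members under an unadjusted p of 0.05 (6.41% of features). Leaving out the second day 4 library gave a replication median of -0.20 and a mitosis median of 0.01, and leaving out the first gave 0.66 and 0.58. Leaving out the first day 2 library gave 0.06 and 0.08, and leaving out the second gave a mitosis median of 0.49.

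To compare miR-29a and miR-29b with NC-miR on day 4, the mature strands are given first. Both share 1 seed, bases 2 to 8, in capitals below. The sequences are from RefSeq (GRCm38.p6). The labels give no sequence for the injected molecules.
miR-29a-3p: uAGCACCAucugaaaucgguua
miR-29b-3p: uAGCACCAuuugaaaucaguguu

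The site that pairs with this seed, TGGTGCT, was searched in the 3' UTRs of the GENCODE annotation (GRCm38). It was found in 4 of 45 members (8.89%), against 13% of 20987 protein-coding genes, and the median UTR of the members was shorter (606 against 954 bases). All 4 are mitosis genes: the kinase Aurkb, the cyclin Ccna2, the kinetochore protein Cenpf and the spindle assembly factor Tpx2. This search was added after the expression values were seen, and a match of letters shows no repression. Each window of 24 bases is written with the site in capitals, on the transcript strand, at chr11:69051343-69051366 (plus), chr3:36566019-36566042 (minus), chr1:189642468-189642491 (minus) and chr2:152894193-152894216 (plus) in that order.
Aurkb: aattctagcactacaTGGTGCTca
Ccna2: ttaattggttaacatTGGTGCTgc
Cenpf: tttatgctgtgtgtgTGGTGCTca
Tpx2: catgttctttattgtTGGTGCTga

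With miR-29b on day 4, all 26 mitosis genes had a negative difference from NC-miR on the same day, from -1.54 to -0.26 with a median of -1.10, against 0.02 over all features. For 20 of 26 both miR-29b libraries lay below both NC-miR libraries (19.3% of all features). The mitosis genes moved together within these pairs, with replicate 2 higher for 26 with miR-29b and 25 with NC-miR. Counts of genes here are therefore not counts of independent observations. limma called 0 members and 0 of 13051 features (0%) in this comparison. At an unadjusted p under 0.05 there were 18 mitosis genes and 0 replication genes (12.5% of features). The median was -0.58 without miR-29b replicate 1 and -1.66 without replicate 2, with 20 and 26 genes separated (34.4% and 31.2% of all features). With the first and second NC-miR libraries left out in turn, 24 and 21 genes were separated (32.0% and 34.2% of all features). In the same comparison 13 of 14 columnar epithelium markers had a positive difference, with a median of 0.46, and 9 were separated upwards, where 22.7% of all features were. limma called 0 of these markers, and 8 were higher at an unadjusted p under 0.05. Crypt stem and transit amplifying markers had a median of -0.02, with 6 of 12 positive and 6 negative. The part of either marker list in the values of the mitosis genes was not tested.

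For the replication genes the median difference was -0.14, with 7 positive and 12 negative and 0 of 19 separated (19.3% of all features lower, 22.7% higher). It was -0.52 and 0.40 with the first and second NC-miR libraries left out in turn, and 0.37 and -0.45 with those of miR-29b left out, so its sign rested on single libraries. The difference between the sets was not tested.

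With miR-29a on day 4, the mitosis genes again all had negative differences from NC-miR, from -0.82 to -0.32 with a median of -0.65. Both miR-29a libraries lay below both NC-miR libraries for 13 of 26 (19.3% of all features). The replication genes had a median of 0.05, with 10 positive, 9 negative and 0 separated in either direction (22.0% of all features higher). limma called 0 members and 0 of 13051 features (0%). At an unadjusted p under 0.05 there were 2 members, Ska1 and Ska3 (7.63% of features). With fewer libraries separation is easier to reach, and 26 mitosis genes were separated when the second miR-29a library was left out (32.2% of all features) or the first NC-miR library was (35.0%). The mitosis median was -0.31 when the first miR-29a library was left out and -0.37 when the second NC-miR library was. In each of these cases 13 of 26 were separated (29.3% and 35.2% of all features). The replication median was -0.10 and 0.14 with the first and second miR-29a libraries left out in turn, and -0.43 and 0.55 with those of NC-miR left out. In the miR-29a comparison crypt stem and transit amplifying markers had a median of 0.35, with 9 of 12 positive. Columnar epithelium markers had a median of 0.05, with 11 of 14 positive. The part of these markers in the values of the members was not tested. The miR-29a and miR-29b comparisons use the same NC-miR libraries.

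**Figure D4:**
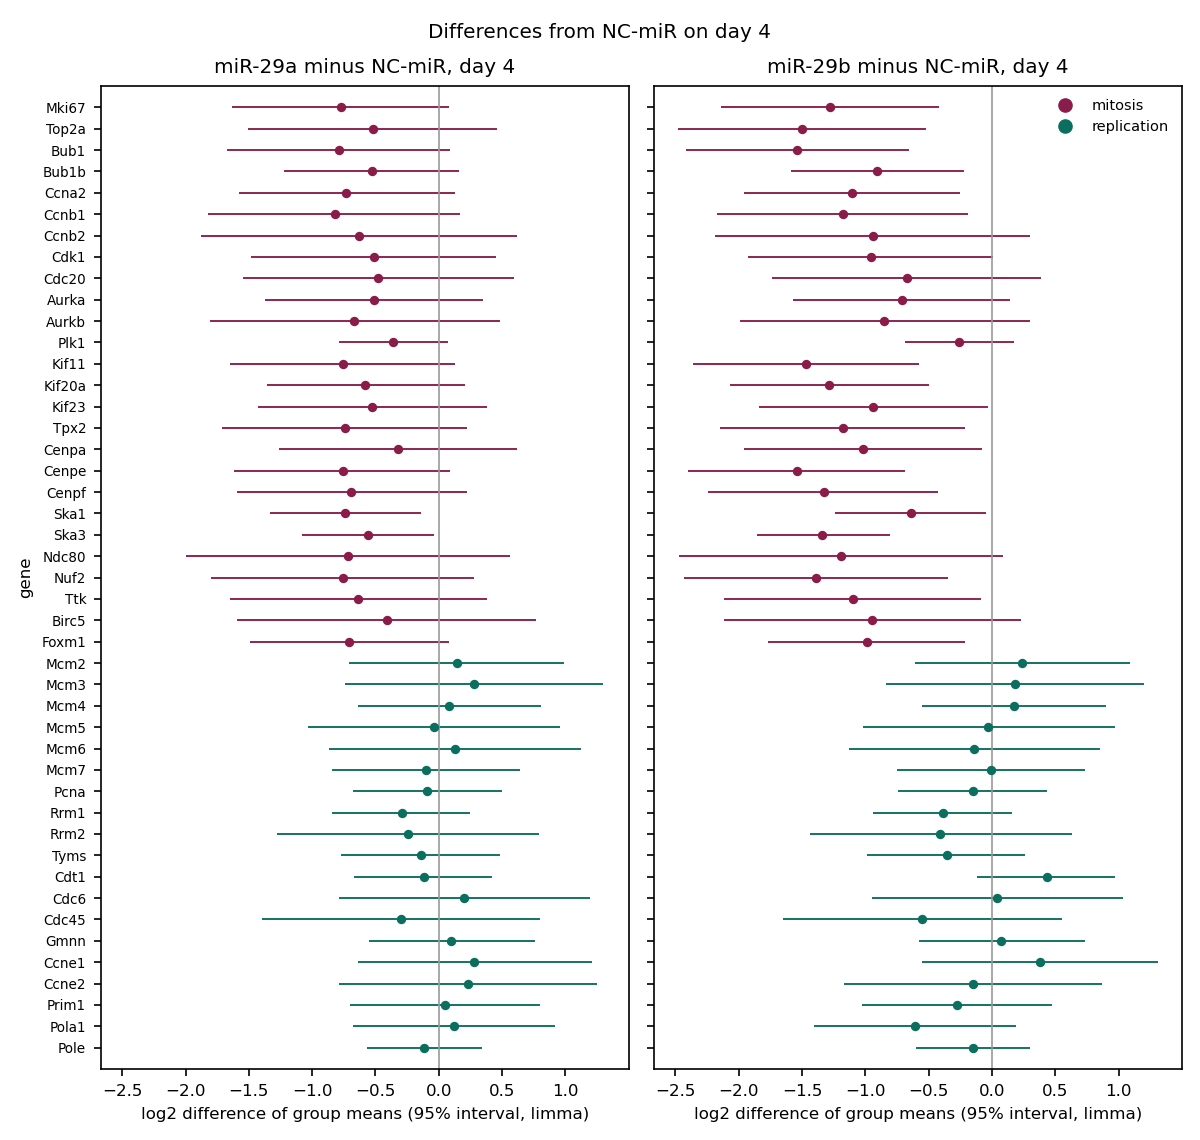
Points are log2 differences of group means from NC-miR on day 4, with 95% limma intervals, for miR-29a (left) and miR-29b (right), n = 2 libraries per group. All 26 mitosis genes lie left of 0 in both panels and replication genes lie on both sides of it. The point of Ska1 with miR-29a is a bound, since both miR-29a libraries lay at the floor.

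Among the regulators of mitotic entry, Cdk1, the kinase of mitosis, stood at -0.10 and 0.54 with NC-miR on day 4, -0.60 and 0.02 with miR-29a and -1.30 and -0.18 with miR-29b. Both miR-29b libraries were below both NC-miR libraries, and miR-29a overlapped NC-miR. The differences were -0.96 ± 0.42 for miR-29b (limma adjusted p = 0.401) and -0.51 ± 0.42 for miR-29a. Its partner Ccnb1 stood at 0.37 and 0.57 with NC-miR, -0.78 and 0.07 with miR-29a and -1.30 and -0.12 with miR-29b. Neither miR-29 group overlapped NC-miR, and the differences were -0.82 ± 0.43 (miR-29a) and -1.18 ± 0.43 (miR-29b). Foxm1 stood at -0.72 and -0.09 with miR-29a and -0.82 and -0.56 with miR-29b, all below the NC-miR libraries at 0.12 and 0.48. Its differences were -0.71 ± 0.34 and -0.99 ± 0.34 (limma adjusted p = 0.676 and 0.357). Plk1 had the smallest residual SD of the 45 genes, 0.19. It stood at -0.28 and 0.01 with miR-29a and -0.26 and 0.19 with miR-29b, and its difference in miR-29b was -0.26 ± 0.19, with overlap.

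Bub1 encodes a kinase of the spindle checkpoint, which delays division until every kinetochore is attached. It stood at 0.10 and 0.68 with NC-miR on day 4, -0.43 and -0.37 with miR-29a and -1.63 and -0.67 with miR-29b. All 4 miR-29 libraries lay below both NC-miR libraries. The differences were -0.79 ± 0.38 (limma adjusted p = 0.676) and -1.54 ± 0.38 (limma adjusted p = 0.335), 2.91-fold for miR-29b.

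Motor proteins move chromosomes and spindle poles along microtubules. Kif11, the motor that separates spindle poles, stood at -0.03 and 0.79 with NC-miR, -0.74 and -0.02 with miR-29a and -1.51 and -0.66 with miR-29b. Its miR-29b libraries were both low, and the difference was -1.47 ± 0.39 (limma adjusted p = 0.338). Kif20a, a motor of cytokinesis, stood at -0.04 and 0.65, -0.55 and 0.01, and -1.45 and -0.50 in the same order. Its difference in miR-29b was -1.29 ± 0.34. Cenpe, the kinetochore motor, stood at 0.18 and 0.85 with NC-miR, -0.71 and 0.20 with miR-29a and -1.38 and -0.68 with miR-29b. Of the 45 genes it had the largest difference in this comparison, 2.92-fold lower with miR-29b (-1.54 ± 0.37, limma adjusted p = 0.335).

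At the outer kinetochore, Ska3 (GRCm38 chromosome 14, 57806558 to 57826291, listed in the files as F630043A04Rik) stood at 0.08 and 0.47 with NC-miR on day 4. It stood at -0.16 and -0.41 with miR-29a and at -1.24 and -0.88 with miR-29b. The 3 groups did not overlap with each other, and the 2 miR-29b libraries were 0.36 apart, less than for most mitosis genes. The difference was -1.34 ± 0.23 for miR-29b (95% interval -1.86 to -0.81, 2.52-fold lower, limma adjusted p = 0.259) and -0.56 ± 0.23 for miR-29a (limma adjusted p = 0.644). Its partner Ska1 lay at the floor in both miR-29a libraries and in miR-29b replicate 1, with -0.38 in miR-29b replicate 2, against 0.06 and 0.26 with NC-miR. The Ska1 difference with miR-29a, a bound because of the floor, was estimated at -0.74 ± 0.26 (95% interval -1.33 to -0.14, limma adjusted p = 0.62).

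Of the genes acting on chromosomes, Top2a, which encodes topoisomerase II alpha and untangles sister DNA, stood at -0.16 and 0.70 with NC-miR, -0.49 and -0.02 with miR-29a and -1.81 and -0.65 with miR-29b. Its miR-29b libraries lay below NC-miR and its miR-29a libraries overlapped it, with differences of -1.50 ± 0.43 (limma adjusted p = 0.339) and -0.52 ± 0.43. Mki67 stood at 0.00 and 0.83 with NC-miR, -0.81 and 0.10 with miR-29a and -1.18 and -0.54 with miR-29b. Its differences were -1.28 ± 0.37 with miR-29b, 2.43-fold, and -0.77 ± 0.37 with miR-29a. Birc5, survivin of the chromosomal passenger complex, stood at -0.01 and 0.50 with NC-miR and at -1.45 and 0.04 with miR-29b. The spread within miR-29b was larger than the difference of -0.95 ± 0.51.

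Of the replication genes in the same libraries, Mcm2 gave intervals that reach well to both sides of 0. Mcm2 stood at 0.21 and -0.29 with miR-29a and at -0.30 and 0.42 with miR-29b, against -0.68 and 0.31 with NC-miR. The differences were 0.14 ± 0.37 (95% interval -0.71 to 0.99) and 0.24 ± 0.37 (-0.61 to 1.09). Mcm6 stood at 0.32 and -0.35 with miR-29a and -0.80 and 0.25 with miR-29b (-0.14 ± 0.43 for miR-29b). Pcna stood at -0.14 and -0.32 with miR-29a and -0.56 and -0.03 with miR-29b, against -0.51 and 0.23 with NC-miR. In all 3 genes both miR-29 groups overlapped NC-miR.

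Cdt1 was the highest of its 10 libraries in miR-29b replicate 2, at 0.55, with 0.01 in replicate 1 and -0.45 and 0.15 with NC-miR on day 4. The difference was 0.43 ± 0.24 (95% interval -0.12 to 0.97). Pola1 stood at -0.99 and -0.24 with miR-29b and 0.21 and 0.03 with miR-29a, against -0.51 and 0.50 with NC-miR. Its difference in miR-29b was -0.61 ± 0.35. Ccne1 stood at 0.38 and -0.32 with miR-29a and 0.09 and 0.16 with miR-29b, against -0.84 and 0.33 with NC-miR, and Ccne2 at 0.19 and -0.08, -0.33 and -0.31, and -0.57 and 0.23. Both cyclin E genes overlapped between the groups.

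Against normal, the median difference of the mitosis genes was -0.83 with miR-29b, with 17 of 26 below both normal libraries (24.5% of all features), and -0.40 with miR-29a, with 8 of 26 (25.2%). The replication genes had medians of -0.33 with miR-29b and -0.26 with miR-29a, and 7 of 19 were separated downwards in each comparison. The difference between the sets was not tested, and with miR-29a their order depended on the library left out, as given below. Pola1 alone was separated upwards with miR-29a (20.9% of all features), and 0 replication genes with miR-29b (21.3%). limma called 0 members in both, against 64 features (0.490%) with miR-29b and 55 (0.421%) with miR-29a. At an unadjusted p under 0.05 there were 13 members with miR-29b (15.3% of features) and 2 with miR-29a (11.0%). With miR-29b, the mitosis and replication medians were -0.44 and 0.08 without miR-29b replicate 1 and -1.33 and -0.65 without replicate 2. With miR-29a, they were -0.09 and -0.40 without miR-29a replicate 1 and -0.72 and -0.02 without replicate 2. The miR-29a mitosis median was -0.12 without normal replicate 1 and -0.68 without normal replicate 2. The count of mitosis genes below normal was 26 with the second miR-29b library left out (40% of all features). For miR-29a it was 25 with its second library left out (38.2%) and 23 with the second normal library left out (40.4%). All 14 columnar epithelium markers had a positive difference from normal with miR-29b, where 11 were separated upwards (21.3% of all features) and limma called 2. B cell markers had a median of -1.67 with miR-29b, with 11 of 11 separated downwards (24.5% of all features) and 1 called. With miR-29a their median was -1.05. Crypt stem and transit amplifying markers had a median of -0.39 with miR-29b, with 10 of 12 negative. The part of these 3 marker lists in the values of the members was not tested. The comparisons against normal use the same 2 normal libraries.

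Ska3 had the smallest adjusted p of any member. With miR-29b it lay at -1.24 and -0.88, against 0.55 and 0.00 in normal, a difference of -1.33 ± 0.23 (95% interval -1.86 to -0.81, limma adjusted p = 0.0582). The adjusted p was 0.0492, which passes, when only features above the floor in all 10 libraries were tested. It was 0.141 without a filter. Under the other limma settings with both libraries of each group it ran from 0.0577 (centring) to 0.152 (only the libraries compared). It was 0.0677 to 0.197 with 1 library left out. Next were Bub1 (-1.35 ± 0.38, limma adjusted p = 0.163), Kif20a (-1.17 ± 0.34, 0.173), Kif11 (-1.27 ± 0.39, 0.19) and Ska1 (-0.84 ± 0.26, 0.191, in part a bound). Top2a stood at 0.32 and -0.03 in normal against -1.81 and -0.65 with miR-29b (-1.37 ± 0.43, limma adjusted p = 0.195). With miR-29a, Ska1 lay at the floor in both libraries. Its difference from normal, a bound for that reason, was estimated at -0.94 ± 0.26 (95% interval -1.53 to -0.34, limma adjusted p = 0.232). Of the replication genes, Prim1 (-0.80 ± 0.33, limma adjusted p = 0.302) had the smallest p with miR-29b. Its miR-29b libraries were at -0.81 and -0.31, and both were below normal.

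Between the miR-29 groups, 3 of 26 mitosis genes were separated with miR-29a higher, where 19.3% of all features were. Their median difference (miR-29a minus miR-29b) was 0.46, with 24 of 26 positive. limma called 0 members and 0 of 13051 features (0%), with 2 members at an unadjusted p under 0.05 (7.43% of features). The mitosis median was -0.03 without miR-29b replicate 1, 1.02 without replicate 2, 0.80 without miR-29a replicate 1 and 0.12 without its replicate 2. The replication median was 0.10, with 3 genes separated upwards and 1 downwards, Cdt1 (19.7% of all features). It was -0.20 and 0.39 without miR-29b replicates 1 and 2, and -0.07 and 0.25 without miR-29a replicates 1 and 2. The 2 members under an unadjusted p of 0.05 were Ska3 (0.77 ± 0.23 higher with miR-29a) and Cdt1 (-0.55 ± 0.24).

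Other genes of mitosis and replication were taken from lists of known function, chosen with earlier results of these data known. They were read in the same 10 libraries, so they are not an independent check on the members. Of 56 other mitosis genes, 54 were tested and none was called by limma. With miR-29b against NC-miR their median was -0.92, with 52 of 54 negative, 40 separated downwards (19.3% of all features) and 30 at an unadjusted p under 0.05 (12.5%). With miR-29a against NC-miR it was -0.53, with 24 separated downwards (19.3% of all features). Of 60 other replication genes, 55 were tested, with medians of -0.11 and -0.03 in these comparisons and -0.36 for NC-miR on day 2 against normal, where 32 were separated downwards (29.6% of all features). None was called, and 8 were lower at an unadjusted p under 0.05 on day 2, where 15.2% of all features passed in either direction. The other mitosis gene of smallest adjusted p was Spc25, a kinetochore protein, at -1.29 and -0.57 with miR-29b against 0.48 and 0.20 in normal (-1.27 ± 0.26, limma adjusted p = 0.0927).

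**Figure D5:**
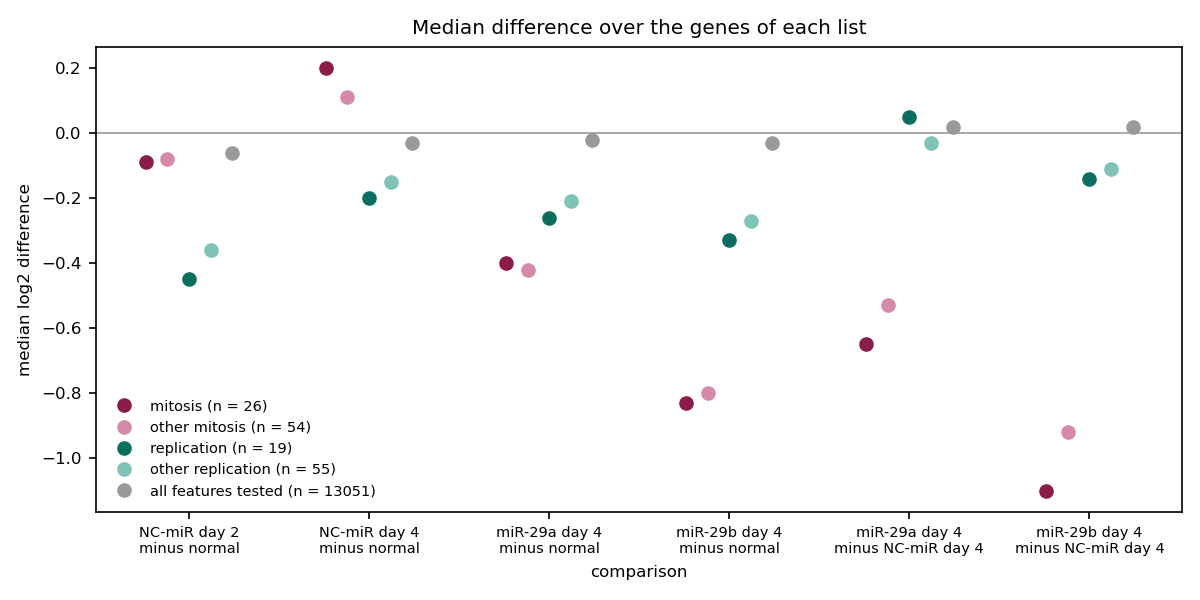
Points are medians over the genes of a list of the log2 difference of group means, for 6 comparisons, with all 13051 tested features in grey. The medians of the 26 mitosis genes and of the 54 other mitosis genes are lowest for miR-29b against NC-miR (-1.10 and -0.92), and the medians of both replication lists are lowest for NC-miR day 2 against normal (-0.45 and -0.36).

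Regulators of the passage from G1 to S phase (35 of 37 tested) had medians from -0.21 to 0.11 in the 8 comparisons, and inhibitors of the cell cycle (15 of 16 tested) from -0.23 to 0.17. limma called 0 of either list in any comparison. At an unadjusted p under 0.05 there were 0 to 7 regulators and 0 to 3 inhibitors per comparison, where 6.41% to 15.3% of all features passed. The E2F factor E2f2 was far above all treated libraries in normal, at 1.22 and 0.87, against -1.35 and -0.33 with NC-miR on day 2, -0.37 and -0.74 on day 4, -1.42 and -0.57 with miR-29a and -0.69 and 0.07 with miR-29b. All 8 treated libraries lay below both normal libraries. Its difference was -1.88 ± 0.41 on day 2 (limma adjusted p = 0.0839) and -2.04 ± 0.41 with miR-29a (0.122). E2f1 stood at 0.17 and 0.09 in normal and -0.98 and -0.38 with NC-miR on day 2 (-0.81 ± 0.31, limma adjusted p = 0.271), and its other treated libraries overlapped normal.

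Cdkn1a, the p21 inhibitor of cyclin kinases, stood at -0.20 and -0.31 in normal, 0.29 and 0.18 with NC-miR on day 2 and -0.36 and -0.23 with NC-miR on day 4. With miR-29a it stood at 0.10 and 0.49 and with miR-29b at 0.21 and 0.12, and these 4 libraries lay above those of NC-miR on day 4. The differences from NC-miR were 0.59 ± 0.16 (limma adjusted p = 0.566) and 0.46 ± 0.16 (0.353). Myc, a transcription factor that promotes growth, stood at 0.34 and 1.06 with miR-29b, above the 8 other libraries (-0.40 to 0.18). Its difference from normal was 0.87 ± 0.24 (limma adjusted p = 0.151). The D cyclins Ccnd1 and Ccnd2 and the kinase Cdk6, which act before S phase, had differences between -0.47 and 0.60 in the comparisons against normal and NC-miR on day 4.

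Some members overlap other genes in the annotation or have named pseudogenes, and whether reads were shared was not measured. Foxm1 and Cdt1 overlap another coding gene on the same strand, 7 members including Ska3 and Mcm7 overlap one on the opposite strand, and 4 (Ccnb1, Ccnb2, Pcna and Tyms) have pseudogenes named after them. The kit was stranded, but how the deposited values treat strand is not given in the sources used here, so the values of these members are uncertain to that extent.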

How the data were processed

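Messenger RNA was sequenced from mouse colorectum in 10 libraries, with the miRNeasy Mini Kit and a TruSeq stranded mRNA kit per the labels. Per the submitters' processing notes, the authors used TopHat2 2.0.13, Bowtie2 2.2.3, SAMtools 0.1.19, Cuffnorm 2.2.1 and the mm10 build, with settings not given in the sources used here. The deposited column is headed FPKM, but it holds, on a log2 scale, the ratio of a gene to its own baseline, with low values raised to a floor; 9322 features share 1 constant in each library. Base 2 was checked on 5805 values, of which 99.7% fell on a grid of 6 significant digits (tolerance 0.1 step), against 21.8% for base 10 and 19.8% for base e. Depth is unknown.

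limma 3.58.1 (R 4.3.3) was fitted to all 10 libraries with 5 group means, with 5 residual and 3.26 prior degrees of freedom, and tested 2-sided. P-values were adjusted by Benjamini-Hochberg over the 13051 features for which some group had both libraries above the floor, with calls under 0.05. The fit was tested on simulated data. A gene was counted as separated when both libraries of 1 group lay below or above both of the other and at least 1 group had no library at the floor. That floor condition was added after the values were seen. Alternatives were other filters, fits, weights and centring, and leaving out each library.

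The members and the other gene lists were chosen with earlier results of these data known. Members named with values were any called, the 8 of each set with the smallest F p and a fixed list of well-known genes. For the other lists they were the 3 of smallest F p and 6 regulators, from which a few are given. The other members are given by ranges and counts, and those named with motif matches or annotation overlaps were chosen after their values were seen. File names of the NC-miR libraries carry a number that follows the labelled day and a letter that follows the replicate. Groups rest on the labels.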

Additional observations from a re-analysis of the deposited data

How the results depend on the processing

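No member was called with any library left out, and 1 was called under 1 other setting: Ska3 for miR-29b against normal, when only the 12133 features above the floor in all 10 libraries were tested (1 member called). Refits that kept all libraries leave group means, and so the medians of the members, unchanged by construction, apart from centring and the genes a filter leaves out. Counts of features called moved. Without a filter, they were 28, 22, 14 and 29 against normal (for day 2 and day 4 of NC-miR, miR-29a and miR-29b), 1 for each miR-29 group against NC-miR, and 15 in the F test. Fitting only the libraries compared gave 26, 20, 24 and 13 against normal in the same order, 2 for miR-29a and 3 for miR-29b when set against NC-miR, and 2 between them. Array weights gave 106 (miR-29a against normal), 23 (miR-29b), 1 (NC-miR day 4 against day 2) and 77 (F). NC-miR day 4 against day 2 gave 1 with robust moderation and 0 with the strict filter. The cause was not tested.

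Over 12133 features, correlations of deviations between groups ran from -0.29 to 0.12. This range cannot exclude a pattern by replicate number in a small set of genes. Replicate 2 was higher for 26 of 26 mitosis genes with miR-29b and 24 with miR-29a. It was higher for 25 with NC-miR on day 4, 24 on day 2 and 0 in normal. For the 19 replication genes these counts were 19, 3, 19, 18 and 8 in the same order. Whether replicate numbers pair the libraries for the members was not tested. With a replicate block, 30 features were called for NC-miR day 4 against normal, 35 for miR-29b against normal and 28 in the F test, and 0 members. The adjusted p of Ska3 for miR-29b against normal was then 0.0942.

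With 1 library left out, features called against normal ranged from 16 to 273 (NC-miR, day 2), 6 to 82 (NC-miR, day 4), 8 to 42 (miR-29a) and 5 to 60 (miR-29b). They ranged from 0 to 94 for NC-miR day 4 against day 2, 0 to 3 for miR-29a and 0 to 4 for miR-29b when set against NC-miR, 0 to 1 between them and 6 to 163 in the F test. Mitosis medians ranged from -1.66 to -0.58 (miR-29b against NC-miR), -1.33 to -0.44 (miR-29b against normal) and -0.03 to 1.02 (miR-29a against miR-29b). Replication medians ranged from -0.64 to 0.22 (NC-miR day 4 against normal), -0.20 to 0.66 (NC-miR day 4 against day 2), -0.43 to 0.55 (miR-29a against NC-miR) and -0.52 to 0.40 (miR-29b against NC-miR). A lone library was then assumed to vary like the other groups. With 2 libraries per group and no read counts, precision rests on the replicate spread alone.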
